A study of Mus musculus with 12 samples.

Results

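The genes described here are 10 genes of neutrophil granules and of neutrophil precursors, measured in bone marrow-derived macrophages: Mpo, Elane, Prtn3, Ctsg, Ltf, Camp, Ngp, S100a8, S100a9 and Chil3. A probe set was taken for a gene when the probe annotation gave that gene as its only symbol, and each of the 10 genes had 1 such probe set, among 12393 genes measured in all. The study used 12 Affymetrix expression arrays of macrophages grown from mouse bone marrow for 5 days in medium of which 30% had been conditioned by L cells, which secrete macrophage colony-stimulating factor. The medium also held 10% serum. All animals were of strain 129-SvEv-Tac and all lacked interleukin-10 (genotype IL10-/-), so the macrophages made no IL-10 of their own. Whether the medium or serum carried any IL-10 is not given here. The other genotype, p50-/-IL10-/-, also lacked the p50 subunit of NF-kB, which Nfkb1 encodes together with its precursor p105. Macrophages of either genotype stayed unstimulated, were given LPS (bacterial lipopolysaccharide, 1 ng/ml), or were given the same LPS with IL-10 at 0.3 ng/ml, and RNA was taken after 4 hours. This gives 6 groups of 2 arrays, which the labels call biological replicates. Whether the 2 arrays of a group came from separate animals, and whether the 3 stimuli of a genotype shared a marrow culture, is not stated, so the p-values reflect only how far these arrays spread. The age and sex of the animals and any array batch are likewise not given in the sources used here, and a batch that followed the genotype cannot be told apart from it. Every group lacks IL-10 of its own, so no group is a wild-type macrophage.

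Neutrophil granules are formed in sequence while the cell matures in the marrow. The primary (azurophil) granules are filled at the promyelocyte stage with myeloperoxidase (Mpo) and the serine proteases neutrophil elastase (Elane), proteinase 3 (Prtn3) and cathepsin G (Ctsg). The specific granules are filled later, at the myelocyte and metamyelocyte stages, with lactoferrin (Ltf), which binds iron, cathelicidin (Camp), an antimicrobial peptide precursor, and neutrophilic granule protein (Ngp). S100a8 and S100a9 encode the subunits of calprotectin, an abundant calcium- and zinc-binding protein of the neutrophil cytosol that monocytes also make. Chil3 encodes a secreted chitinase-like lectin (Ym1) made by neutrophil precursors and by some macrophages. C/EBP transcription factors, with PU.1 and Gfi1, are the textbook regulators of granule genes.

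The promoters of the 4 genes whose group means spanned 1 log2 unit or more (S100a8, S100a9, Chil3 and Ngp) are printed here. Each stretch is the 200 bases before the RefSeq transcription start of the gene in build GRCm38.p6, 5′ to 3′ on the strand of the gene. Capitals mark matches, on either strand, to the C/EBP-type pattern TTNNGNAA.
S100a8, chr3:90668871-90669070, plus strand: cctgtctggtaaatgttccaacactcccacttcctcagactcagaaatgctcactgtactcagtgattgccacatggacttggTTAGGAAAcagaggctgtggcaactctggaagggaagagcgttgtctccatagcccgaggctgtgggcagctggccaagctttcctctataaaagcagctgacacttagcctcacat
S100a9, chr3:90695722-90695921, minus strand: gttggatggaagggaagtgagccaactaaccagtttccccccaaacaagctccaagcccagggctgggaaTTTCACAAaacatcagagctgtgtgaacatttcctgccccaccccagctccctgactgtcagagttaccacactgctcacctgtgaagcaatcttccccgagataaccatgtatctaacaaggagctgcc
Chil3, chr3:106167565-106167764, minus strand: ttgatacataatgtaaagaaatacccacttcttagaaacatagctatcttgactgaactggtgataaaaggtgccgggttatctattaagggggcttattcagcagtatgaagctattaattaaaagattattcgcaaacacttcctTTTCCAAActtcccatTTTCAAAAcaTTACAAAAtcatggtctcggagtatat
Ngp, chr9:110419608-110419807, plus strand: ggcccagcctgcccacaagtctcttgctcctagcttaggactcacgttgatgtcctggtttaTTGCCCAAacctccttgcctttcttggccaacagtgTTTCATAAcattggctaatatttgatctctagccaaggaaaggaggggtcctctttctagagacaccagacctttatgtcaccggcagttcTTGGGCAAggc
In the whole window of 250 bases before to 50 after the start, a further match in S100a9 lay upstream of the printed stretch. The C/EBP-type pattern was present in the windows of 5 of the 10 genes (S100a8, S100a9, Chil3, Ltf and Ngp) and in 40.7% of all 32851 promoter windows. The NF-kB-type pattern GGGNNNNNCC was present in 5 of 10 (Chil3, Mpo, Prtn3, Camp and Ltf) and in 50.8% of all windows. The PU.1-type pattern GAGGAA was present in 6 of 10, including the windows of all 4 azurophil granule genes, and in 28.3% of all windows. The STAT-type pattern TTCNNNGAA was in 2 of 10 (Chil3 and Ctsg) and in 8.3% of all windows, and TATAAA was in 4 of 10 and in 13.6%. Matches were counted on both strands, and a match is a description of the letters, not evidence of a bound site. S100a8 and S100a9 lie next to each other on chromosome 3, and Prtn3 and Elane next to each other on chromosome 10, with 0 protein-coding genes between. Camp, Ngp and Ltf lie on chromosome 9, with 8 protein-coding genes between Camp and Ngp and 20 between Ngp and Ltf. Mpo lies on chromosome 11 and Ctsg on chromosome 14. Chil3 lies on chromosome 3, which also carries Nfkb1. S100a8 and S100a9 thus share a chromosome with Nfkb1 as well, and the part of this in the results was not tested.

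The arrays were alike in scale. Array medians lay between 6.92 and 6.96 on the log2 scale, lower quartiles between 5.49 and 5.60, and the correlation between the 2 arrays of a group, across genes, between 0.992 and 0.997. Checked against macrophage markers, 12 of 13 listed genes were measured, with means over the 12 arrays from 9.31 (Mertk) to 14.05 (Lyz2). The level of Nfkb1 is not analysed here, and the genotype labels were taken as given.

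Granule genes were lower in macrophages without p50. The 10 genes were chosen with earlier results of these data known. The shares and places given here and below therefore describe the set and do not test it. Averaged over the 3 stimuli, 9 of the 10 were called lower in p50-/-IL10-/- than in IL10-/- macrophages and 0 higher, at a Benjamini-Hochberg adjusted p under 0.05 over all genes in limma, against a background of 15.1% of the 12393 genes called lower and 10.6% higher. The difference ranged from -1.21 log2 units (Chil3) to -0.15 (Ctsg, adjusted p = 0.0909, the member not called), with a median of -0.59 over the 10 genes against 0.00 over all genes. For 9 of the 10 genes, all but Ctsg, each of the 6 p50-/-IL10-/- arrays lay below each of the 6 IL10-/- arrays, a pattern held by 1.82% of all genes. Ordered by this difference from the lowest of 12393 genes, Chil3 was at place 36, S100a9 at 51, S100a8 at 64 and Ngp at 102, while Mpo was at 640, Prtn3 at 943 and Ctsg at 2307. In a bulk culture such as this, fewer cells of a type and less RNA per cell cannot be told apart.

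**Figure D1:**
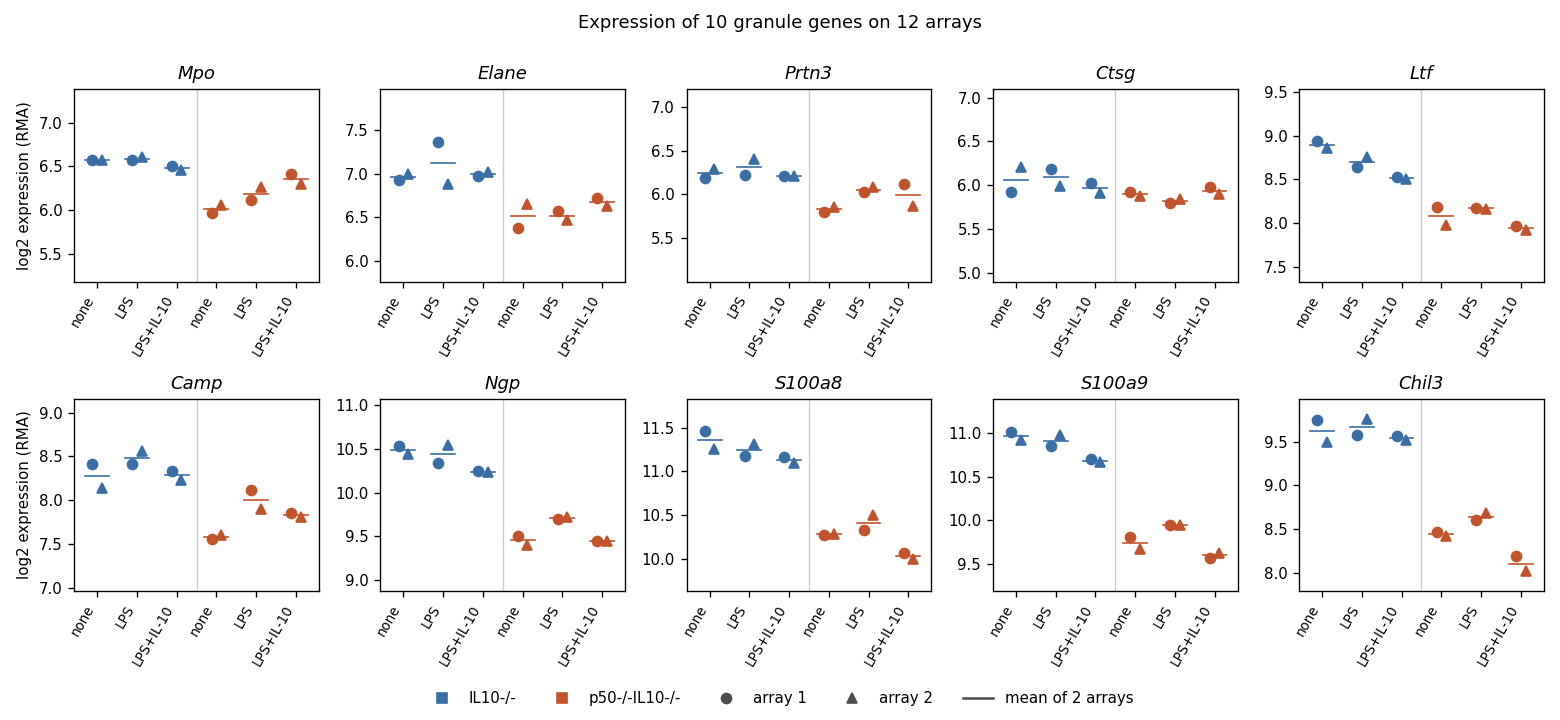
Log2 expression (RMA, vertical axes, each spanning the same number of log2 units around its gene) of the 10 genes on each of the 12 arrays, by stimulus, with IL10-/- in blue and p50-/-IL10-/- in red. Circles are array 1, triangles array 2 and bars the mean of 2 arrays; the red points lie below the blue points in every panel but that of Ctsg, where they overlap.

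Among the calprotectin genes, S100a8 read 11.47 and 11.26 in unstimulated IL10-/- macrophages, 11.18 and 11.31 with LPS, and 11.16 and 11.10 with LPS plus IL-10. In p50-/-IL10-/- macrophages the same probe set read 10.28 and 10.28 unstimulated, 10.33 and 10.50 with LPS, and 10.07 and 9.99 with LPS plus IL-10. The genotypes did not overlap: the lowest IL10-/- array was 0.60 log2 units above the highest p50-/-IL10-/- array. S100a8 was 2.01-fold lower without p50 (log2 difference -1.00 ± 0.05, where ± gives the SE here and below, limma adjusted p = 1.30e-06). Its probe set is of a type whose probes can match more than 1 transcript.

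S100a9, the partner of S100a8 in calprotectin, read 11.01 and 10.92 unstimulated, 10.85 and 10.98 with LPS and 10.70 and 10.67 with LPS plus IL-10 in IL10-/- macrophages. Without p50 it read 9.81 and 9.67 unstimulated, 9.95 and 9.95 with LPS, and 9.57 and 9.63 with LPS plus IL-10. The gap between genotypes was 0.71 log2 units, and the level without p50 was 2.13-fold lower (log2 difference -1.09 ± 0.05, limma adjusted p = 2.75e-07). The 6 groups stood in the same order for both calprotectin genes: the 3 IL10-/- groups above, from unstimulated through LPS to LPS with IL-10, and below them p50-/-IL10-/- with LPS, unstimulated, and with LPS plus IL-10. Only the neighbours unstimulated and LPS of IL10-/- overlapped in this order, for either gene.

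Chil3, the chitinase-like lectin, showed the largest genotype difference of the 10 genes in the average over stimuli; in unstimulated cells S100a9 differed more (-1.22 against -1.18). It read 9.75 and 9.50 unstimulated, 9.58 and 9.76 with LPS, and 9.56 and 9.52 with LPS plus IL-10 in IL10-/- macrophages. Without p50 it read 8.46 and 8.42 unstimulated, 8.60 and 8.68 with LPS, and 8.19 and 8.02 with LPS plus IL-10. Neighbours in the order of the IL10-/- groups overlapped, the p50-/-IL10-/- groups did not, and 0.82 log2 units separated the genotypes. Chil3 was 2.32-fold lower without p50 (log2 difference -1.21 ± 0.06, limma adjusted p = 6.72e-07). A further probe set that the annotation assigns to both Chil3 and its near-identical neighbour Chil4 is no member by the rule. It read 8.38 to 8.69 in IL10-/- and 7.30 to 7.78 in p50-/-IL10-/- macrophages, a difference of -1.00 ± 0.06 (limma adjusted p = 6.13e-06 over all probe sets), while the probe set of Chil4 alone differed by -0.04 ± 0.05 (adjusted p = 0.572). The group means of the Chil4 probe set lay between 5.34 and 5.65, near the lower quartiles of the arrays (5.49 to 5.60). At that level a missing call does not show that Chil4 was unchanged.

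Of the specific granule genes, Ngp read 10.53 and 10.44 unstimulated, 10.34 and 10.54 with LPS, and 10.25 and 10.24 with LPS plus IL-10 in IL10-/- macrophages. Without p50 it read 9.51 and 9.41 unstimulated, 9.70 and 9.73 with LPS, and 9.44 and 9.45 with LPS plus IL-10. The genotypes were 0.51 log2 units apart at their nearest arrays, and Ngp was 1.80-fold lower without p50 (log2 difference -0.85 ± 0.05, limma adjusted p = 1.77e-06). Ltf, the iron-binding lactoferrin, read 8.94 and 8.86, 8.64 and 8.76, and 8.53 and 8.51 in IL10-/- macrophages (unstimulated, LPS, and LPS with IL-10, in that order), and 8.18 and 7.98, 8.18 and 8.17, and 7.97 and 7.93 without p50. The 3 IL10-/- groups of Ltf did not overlap one another, and Ltf was 1.56-fold lower without p50 (-0.64 ± 0.05, adjusted p = 1.02e-05). Camp read 8.42 and 8.14, 8.41 and 8.56, and 8.34 and 8.23 in IL10-/- macrophages, and 7.56 and 7.60, 8.11 and 7.90, and 7.85 and 7.81 without p50, in the same order of stimuli. Camp was 1.46-fold lower (-0.54 ± 0.06, adjusted p = 0.00016), but the genotypes were only 0.02 log2 units apart: the higher p50-/-IL10-/- array with LPS came close to the lower unstimulated IL10-/- array.

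The azurophil granule genes showed smaller differences, in the order Elane, Mpo, Prtn3 and Ctsg. Mpo read 6.58 and 6.58 unstimulated, 6.57 and 6.60 with LPS, and 6.51 and 6.46 with LPS plus IL-10 in IL10-/- macrophages, and 5.96 and 6.06, 6.11 and 6.27, and 6.41 and 6.30 without p50. The p50-/-IL10-/- arrays of Mpo thus came nearer to the IL10-/- arrays from unstimulated to LPS to LPS with IL-10, and the mean difference was -0.36 ± 0.05 (1.29-fold lower, limma adjusted p = 0.0003). Elane ranged from 6.89 to 7.36 (median 6.99) over the 6 IL10-/- arrays and from 6.38 to 6.72 (median 6.60) over the 6 p50-/-IL10-/- arrays (1.37-fold lower, -0.46 ± 0.08, adjusted p = 0.00211). Its highest value, 7.36, came from 1 of the IL10-/- arrays with LPS, whose partner read 6.89. Prtn3 ranged from 6.18 to 6.40 (median 6.22) and from 5.80 to 6.12 (median 5.95), 1.23-fold lower without p50 (-0.29 ± 0.06, adjusted p = 0.00352). Ctsg ranged from 5.91 to 6.20 (median 6.01) and from 5.79 to 5.98 (median 5.89), and its genotypes overlapped. The deposited table holds no detection calls, so whether the probe sets of these 4 genes were above background was not determined.

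At each stimulus separately, all 10 differences were below 0. In unstimulated macrophages 7 of 10 genes were called lower without p50 (limma, background 1.31% called lower), all but Elane (adjusted p = 0.157), Prtn3 (adjusted p = 0.0615) and Ctsg (adjusted p = 0.589). With LPS 8 of 10 were called lower (background 6.72%), all but Prtn3 and Ctsg. With LPS plus IL-10 6 of 10 were called lower (background 10.4%): S100a8, S100a9, Chil3, Camp, Ltf and Ngp. These same 6 genes were called lower at each of the 3 stimuli, as were 0.734% of all genes. The median difference of the 10 genes was -0.75 unstimulated, -0.57 with LPS and -0.51 with LPS plus IL-10, against -0.01, -0.02 and 0.04 over all genes. The largest single difference was that of Chil3 with LPS plus IL-10, -1.43 ± 0.10 or 2.70-fold lower (adjusted p = 2.36e-05). Mpo with LPS plus IL-10 differed by -0.13 ± 0.08 and was not called (adjusted p = 0.300).

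**Figure D2:**
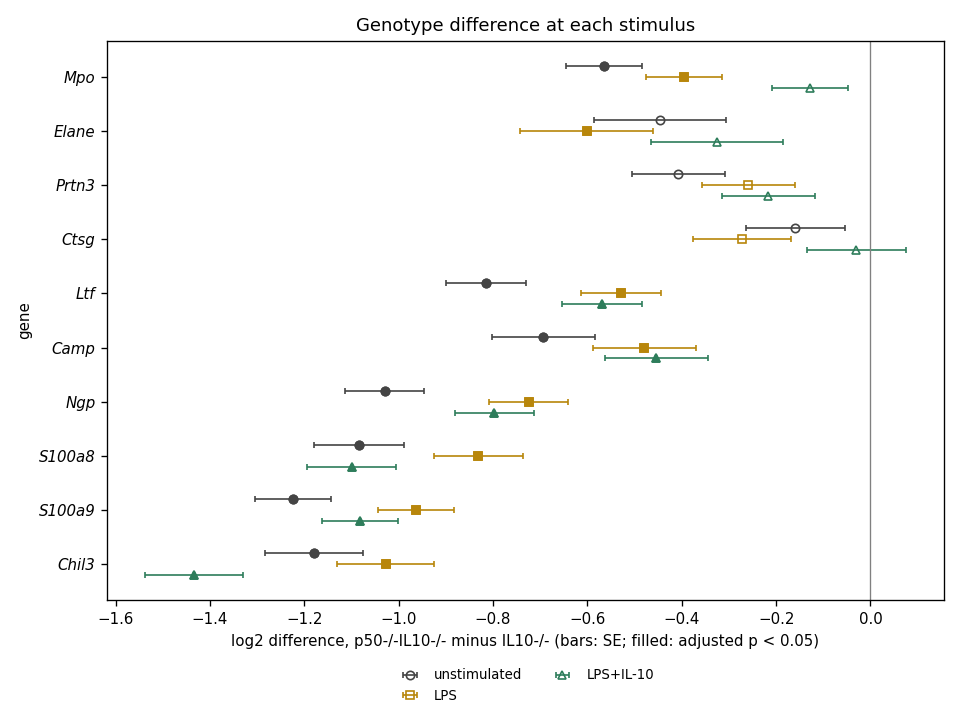
Log2 difference between genotypes (p50-/-IL10-/- minus IL10-/-, horizontal axis) for each of the 10 genes at each stimulus, with bars of 1 SE from limma; filled symbols have an adjusted p under 0.05. All 30 points lie below 0, from -1.43 for Chil3 with LPS plus IL-10 to -0.03 for Ctsg with LPS plus IL-10.

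Leaving out any 1 of the 12 arrays kept all 9 calls of the average over stimuli. The calls at single stimuli of S100a8, S100a9, Chil3, Ltf and Ngp were also kept without any 1 array of the groups compared. Mpo with LPS lost its call without p50-/-IL10-/- LPS array 1 (-0.32, adjusted p = 0.0871). Elane with LPS lost it without IL10-/- LPS array 1 (-0.37, adjusted p = 0.0691), p50-/-IL10-/- LPS array 1 (-0.65, adjusted p = 0.0705) or p50-/-IL10-/- LPS array 2 (-0.55, adjusted p = 0.0988). Camp lost it in unstimulated cells without p50-/-IL10-/- unstimulated array 1 or 2 (adjusted p up to 0.0619), with LPS without IL10-/- LPS array 2 or p50-/-IL10-/- LPS array 2 (adjusted p up to 0.113), and with LPS plus IL-10 without any 1 of the 4 arrays compared (adjusted p from 0.0539 to 0.0935). Ctsg was called in the average over stimuli only without IL10-/- unstimulated array 1.

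LPS alone gave few calls among these genes. In IL10-/- macrophages 0 of 10 were called after LPS against unstimulated (limma), where 24.8% of all genes were called. Of the 10, 1 had an unadjusted p under 0.05 (Ltf, -0.20 ± 0.08), against 34.8% of all genes. The IL10-/- arrays lay lower with LPS without overlap for 1 gene (32.8% of all genes) and higher for 0 (24.4%). Without IL10-/- LPS array 2, Elane was called higher. In p50-/-IL10-/- macrophages Camp rose by 0.42 ± 0.11 log2 units (1.34-fold, limma adjusted p = 0.0118) and Ngp by 0.26 ± 0.08 (1.20-fold, adjusted p = 0.0365), that is 2 of 10 genes against a background of 10.3% called higher, and 0 were called lower against 22.1%. Of the other 8 genes without p50, 7 had a difference above 0, S100a9 among them with 0.21 ± 0.08 (limma adjusted p = 0.0724). Over all 10 genes without p50, the arrays lay higher with LPS without overlap for 7 (28.3% of all genes) and lower for 1 (37.4%). Centring each array on its own median over the 12393 genes raised all differences of this comparison by 0.13 log2 units, and 6 of the 10 were then called higher (S100a9, Chil3, Mpo, Prtn3, Camp and Ngp), against 20.2% of all genes called higher and 14.8% lower. The call of Camp was lost without p50-/-IL10-/- unstimulated array 1 (0.40, adjusted p = 0.0658) or p50-/-IL10-/- LPS array 1 (0.32, adjusted p = 0.109). The call of Ngp was lost without any 1 of the 4 arrays compared (0.21 to 0.31, adjusted p up to 0.205).

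Adding IL-10 to LPS lowered both calprotectin genes and Chil3 in macrophages without p50. In p50-/-IL10-/- macrophages Chil3 fell by 0.54 ± 0.10 log2 units relative to LPS alone (1.45-fold, limma adjusted p = 0.0134), S100a8 fell by 0.38 ± 0.09 (1.30-fold, adjusted p = 0.0412) and S100a9 fell by 0.35 ± 0.08 (1.27-fold, adjusted p = 0.0325). These are 3 of 10 genes against a background of 2.87% called lower and 3.7% higher (with median centring 4 of 10, Ngp being added, against 4.2% and 2.24%), and for each of the 3 the arrays of the 2 groups did not overlap. Over all 10 genes without p50, the arrays lay lower with IL-10 without overlap for 6 (19.2% of all genes) and higher for 3 (37.8%). In IL10-/- macrophages 0 of 10 were called (limma, background 6.17% called), 2 had an unadjusted p under 0.05 (S100a9, -0.23 ± 0.08, and Ngp, -0.20 ± 0.08; background 17%), and all 10 differences were below 0, from -0.23 to -0.10. The arrays of 8 of these 10 lay lower with IL-10 without overlap in IL10-/- macrophages (17.2% of all genes) and those of 0 higher (22.5%). The calls without p50 rested on few arrays: those of S100a8 and S100a9 were lost without any 1 of the 4 arrays compared (adjusted p up to 0.204 and 0.154). That of Chil3 was kept without p50-/-IL10-/- LPS+IL-10 array 1 and lost without p50-/-IL10-/- LPS+IL-10 array 2 (-0.45, adjusted p = 0.116), LPS array 1 (-0.58, adjusted p = 0.0634) or LPS array 2 (-0.50, adjusted p = 0.0729).

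**Figure D3:**
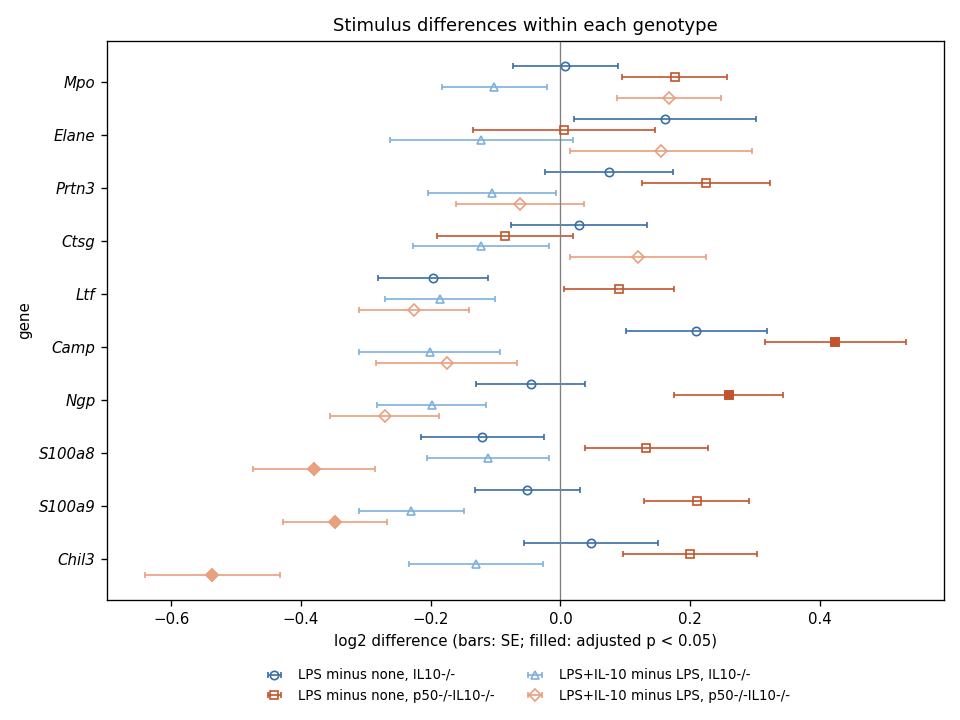
Log2 difference between stimuli within a genotype (horizontal axis) for each of the 10 genes: LPS minus unstimulated and LPS with IL-10 minus LPS, with bars of 1 SE from limma; filled symbols have an adjusted p under 0.05. Only Camp and Ngp with LPS, and S100a8, S100a9 and Chil3 with IL-10 added, are filled, all of them in p50-/-IL10-/- macrophages.

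LPS with IL-10 against unstimulated cells gave 4 calls. In IL10-/- macrophages Ltf fell by 0.38 ± 0.08 log2 units (1.30-fold, limma adjusted p = 0.00885) and S100a9 fell by 0.28 ± 0.08 (1.21-fold, adjusted p = 0.0326), 2 of 10 genes against a background of 12.5% called lower. Without p50, Chil3 fell by 0.34 ± 0.10 (1.26-fold, adjusted p = 0.0268, background 21.2% called lower) and Mpo rose by 0.34 ± 0.08 (1.27-fold, adjusted p = 0.00758, background 16.7% called higher). These counts are at or near the background. Ltf lost its call without IL10-/- unstimulated array 1 (-0.34, adjusted p = 0.0678), and S100a9 without any 1 of the 4 arrays (adjusted p up to 0.186). With each array centred on its median, Chil3 (-0.27, adjusted p = 0.0528) and S100a9 (-0.21, adjusted p = 0.105) were not called, and Camp was called higher without p50; the background was then 9.35% called lower in IL10-/- macrophages, and 17.9% lower and 26.5% higher without p50. Mpo lost its call without p50-/-IL10-/- unstimulated array 1 (0.29, adjusted p = 0.0586) or LPS+IL-10 array 1 (0.29, adjusted p = 0.0575), and Chil3 without p50-/-IL10-/- unstimulated array 1, unstimulated array 2 or LPS+IL-10 array 2 (adjusted p up to 0.167).

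A stimulus effect called in 1 genotype and not in the other does not show that the genotypes differ, so the differences were tested themselves. For the LPS response 0 of 10 genes were called to differ between genotypes (limma, background 1.19% called), with 3 at an unadjusted p under 0.05 (S100a9, Ltf and Ngp, background 10%) and a lowest adjusted p of 0.388 (Ngp, 0.31 ± 0.12). For the effect of IL-10 added to LPS 0 of 10 were called (limma, background 0.137%), with 2 at an unadjusted p under 0.05 (Chil3 and Mpo, background 11.7%) and a lowest adjusted p of 0.353 (Chil3, -0.41 ± 0.15). Ltf differed by 0.29 ± 0.12 in its LPS response, from -0.20 with p50 to 0.09 without.

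Further neutrophil genes were divided. Of 26 further genes of later granules and mature neutrophils, 17 were measured. In the average over stimuli 8 of the 17 were called lower without p50, 1 higher and 8 not called, with a median difference of -0.10. For this and the lists that follow, the background is again 15.1% of all genes called lower and 10.6% higher, with a median of 0.00. These lists too were chosen with earlier results of these data known, so their counts describe them and do not test them. Lcn2, which encodes the siderophore-binding specific granule protein lipocalin 2, differed most. It lay between 8.57 and 9.35 in IL10-/- and between 7.36 and 8.02 in p50-/-IL10-/- macrophages, without overlap (2.28-fold lower, -1.19 ± 0.08, limma adjusted p = 3.94e-06). The gelatinase Mmp9 (-0.38 ± 0.05), the histone-citrullinating enzyme Padi4 (-0.39 ± 0.07), the peptidoglycan-binding Pglyrp1 (-0.30 ± 0.07) and Wfdc21 (-0.45 ± 0.08) kept their calls without any 1 array. Mmp8, Cd177 and Slpi, also called lower (-0.31, -0.18 and -0.20), lost theirs without 9, 4 and 7 of the 12 arrays, each left out in turn (adjusted p up to 0.113, 0.0633 and 0.0743). The group means of Padi4 lay between 4.97 and 5.48, below the lower quartile of every array, and those of Pglyrp1 between 5.60 and 6.20. Hp, the haemoglobin-binding haptoglobin, was higher without p50 (1.06 ± 0.10, 2.09-fold, limma adjusted p = 4.36e-05). The receptors Csf3r (0.00 ± 0.07), Cxcr2 (0.03) and Trem1 (0.02) were not called.

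Of 12 further genes of primary granules and promyelocytes 9 were measured, with a median difference of 0.02. Cst7, the protease inhibitor cystatin F, was higher without p50 (3.14-fold, 1.65 ± 0.12, limma adjusted p = 8.20e-06). Myb, a transcription factor of progenitors, was called lower (-0.20 ± 0.07, adjusted p = 0.0473), a call lost without 8 of the 12 arrays left out in turn (adjusted p up to 0.130). The other 7 were not called. They include Ctsc (-0.05 ± 0.07), the peptidase that activates the granule proteases, Srgn (0.05 ± 0.04), the proteoglycan that packs them, and the promyelocyte marker Ms4a3 (0.02). Means over the 12 arrays ran from 4.48 (Serpinb1a) to 12.42 (Ctsc) in this list. Serpinb1a and Cd34 read below the lower quartile of every array in all groups, and Myb in all but IL10-/- with LPS. At such low levels a missing call does not show that a gene was unchanged.

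Of the transcription factors of granule genes 10 of 11 were measured, with Cebpe not among them, and 2 were called lower, 1 higher and 7 not called. Cebpd was 2.69-fold lower without p50 (-1.43 ± 0.07, limma adjusted p = 6.72e-07). It lay at 9.59 to 9.76 against 8.67 to 8.85 in unstimulated cells and 11.53 to 11.55 against 9.25 to 9.55 with LPS. With LPS plus IL-10 it lay at 11.46 to 11.64 against 10.22 to 10.42. Cebpa was lower in the average (-0.51 ± 0.10, limma adjusted p = 0.00446), but among the single stimuli it was called only with LPS. It lay at 12.00 to 12.17 against 12.07 to 12.24 in unstimulated cells, where the arrays overlapped. With LPS it lay at 9.57 to 9.81 against 8.22 to 8.65, and with LPS plus IL-10 at 10.11 to 10.30 against 9.62 to 10.10. Gfi1, a transcriptional repressor needed for neutrophil differentiation, was higher (1.64 ± 0.11, limma adjusted p = 5.21e-06). It lay at 4.63 to 4.76 against 4.85 to 5.03 in unstimulated cells, below the lower quartile of every array. With LPS it lay at 7.23 to 7.88 against 8.95 to 9.32, and with LPS plus IL-10 at 5.75 to 5.88 against 8.78 to 9.03. These 3 were called in the limma test of the genotype difference of the LPS response (Cebpa -1.33 ± 0.25, adjusted p = 0.0355, Cebpd -1.23 ± 0.17, adjusted p = 0.0104, and Gfi1 1.33 ± 0.27, adjusted p = 0.0470). In that test 1.19% of all genes were called. These 3 calls were not refitted with an array left out or under the other settings. Cebpb (-0.09 ± 0.07), Spi1, which encodes PU.1 (0.07 ± 0.05), and Stat3 (0.03 ± 0.06) were not called.

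Of 14 other S100 genes and receptors of calprotectin 13 were measured, with a median difference of 0.04. Cd33, a receptor that binds S100a9, was lower without p50 (-0.78 ± 0.12, 1.72-fold, limma adjusted p = 0.000941). S100a1 (-0.28 ± 0.08) was called lower and Bsg (0.25 ± 0.08), a receptor of S100a9, higher, and each lost its call without several single arrays (7 and 8 of 12, adjusted p up to 0.0695 and 0.0971). Tlr4 (-0.03) and Ager (0.04), both receptors of calprotectin, and S100a4, S100a6 and S100a10 (0.23, 0.25 and 0.08) were not called. In the chitinase-like family 5 of 6 genes were measured. Chil1, which encodes another chitinase-like protein, went the opposite way from Chil3: it was 3.31-fold higher without p50 (1.72 ± 0.13, limma adjusted p = 8.67e-06). Ctbs, the lysosomal chitobiase, was also called higher (0.26 ± 0.05, adjusted p = 0.00407).

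**Figure D4:**
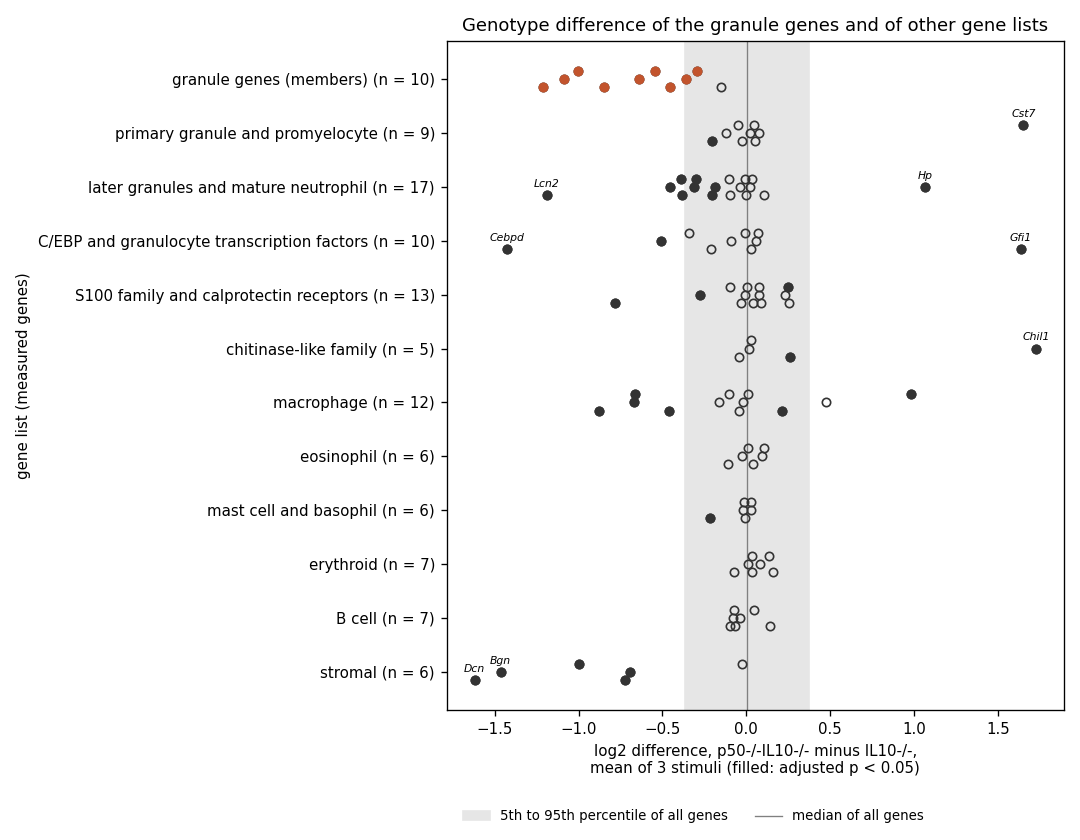
Log2 difference between genotypes averaged over the 3 stimuli (p50-/-IL10-/- minus IL10-/-, horizontal axis) for the 10 granule genes (red) and for the measured genes of 11 other lists; filled points have a limma adjusted p under 0.05, and points are shifted vertically only to separate them. The grey band from -0.37 to 0.37 spans the 5th to 95th percentile of all genes; 8 of 17 later granule genes and 5 of 6 stromal genes are filled on the lower side, and Cst7, Hp, Gfi1 and Chil1 stand far on the higher side.

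Markers of other cells that such a culture can hold were read on the same arrays. Of 6 stromal genes 5 were called lower without p50: Dcn (-1.62 ± 0.20), Bgn (-1.47 ± 0.15), Col3a1 (-0.99 ± 0.21), Col1a2 (-0.72 ± 0.11) and Sparc (-0.70 ± 0.09). Col1a1 was not called (-0.03). The mean of the 6 stromal genes lay between 6.79 and 7.44 on the IL10-/- arrays and between 5.97 and 6.37 on the p50-/-IL10-/- arrays, without overlap. The mean of the 10 granule genes lay between 8.39 and 8.58 and between 7.75 and 7.96. The part of stromal cells in the granule gene difference was not tested. Of 12 macrophage genes 4 were called lower (Mrc1 -0.88 ± 0.10, C1qa -0.67 ± 0.14, Itgam -0.67 ± 0.14 and Adgre1 -0.46 ± 0.06), 2 higher (Mertk 0.98 ± 0.11 and Cd68 0.21 ± 0.05) and 6 not called. The mean of the 12 lay between 12.01 and 12.35 and between 11.95 and 12.27, with overlap. Of 6 mast cell and basophil genes 1 was called (Mcpt8, -0.22 ± 0.05). In limma 0 of 6 eosinophil, 0 of 7 erythroid and 0 of 7 B cell genes were called, with 1, 2 and 0 at an unadjusted p under 0.05, where 25.7% of all genes were called and 36.2% had such a p. The log2 scale has no true 0, so none of these markers can be called absent.

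The genes whose pattern over the 12 arrays was most like that of S100a8, S100a9, Chil3 and Ngp were sought among 8992 genes with a mean of at least 6 log2 units. Ifngr1, the ligand-binding chain of the interferon gamma receptor, came first for each of the 4. It was lower without p50 (10.57 against 9.95, -0.62 ± 0.05, limma adjusted p = 1.23e-05). The pooled coefficient (Pearson r from 0.96 to 0.97) mainly restates the step between genotypes, so the coefficient over the 6 arrays of each genotype is given as the description. With Ifngr1 it was 0.82 in IL10-/- and 0.90 in p50-/-IL10-/- macrophages for S100a8, 0.83 and 0.96 for S100a9, 0.47 and 0.96 for Chil3, and 0.71 and 0.87 for Ngp. The next genes were Ccn2 and Fcrls for S100a8, Plxdc2 and Ccn2 for S100a9, Plxdc2 and Gdpd1 for Chil3, and Trio and Ccn2 for Ngp. Within genotypes these were less alike, from -0.29 (Ccn2 with S100a9 in p50-/-IL10-/-) to 0.46 (Gdpd1 with Chil3 in p50-/-IL10-/-), except Trio with Ngp in IL10-/-, at 0.90. The arrays of a genotype share their stimuli in these coefficients, and no test was made of them.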

How the data were processed

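RNA of 12 macrophage cultures was hybridised to Affymetrix arrays. The deposited log2 values were normalised with RMA by the authors, per the submitters' processing notes, which name RMA and limma without versions; replicates were not pooled. The table holds 22690 probe sets: 64 controls, 20380 with 1 gene symbol, 691 with several and 1555 with none. For each of 12393 genes the probe set with the highest mean was kept.

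Group means were fitted to the deposited values with limma 3.58.1 (R 4.3.3; lmFit and eBayes) over all 12 arrays, with 12 contrasts, 6 residual and 4.47 prior degrees of freedom, and Benjamini-Hochberg adjustment over all genes; two-sided adjusted p under 0.05 is a call. The median SE of a difference between 2 groups was 0.10 log2; the number of arrays limits the precision. The step was tested on simulated data. The 10 genes were all named; of the other lists called genes were named, and any uncalled gene named was chosen after its values were seen. The 10 genes and the lists were chosen with earlier results of these data known. Equal replicate numbers were not used to pair the arrays. Alternatives were median centring, a filter of 6 log2, a replicate block, only the compared groups, all probe sets, an intensity trend, and each array left out. Promoters are RefSeq, GRCm38.p6; 10 of 10 genes matched.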

Additional observations from a re-analysis of the deposited data

Results flagged for a closer look

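Mpo was singled out because its arrays moved in opposite directions in the 2 genotypes when IL-10 was given with LPS. Relative to LPS alone, Mpo differed by -0.10 log2 units in IL10-/- and by 0.17 in p50-/-IL10-/- macrophages, and in each genotype the arrays of the 2 groups did not overlap. The difference between these effects was 0.27 ± 0.11, and in limma it was not called (adjusted p = 0.405). Relative to unstimulated cells Mpo differed by -0.094 in IL10-/- and by 0.34 in p50-/-IL10-/- macrophages, again without overlap. That difference between genotypes was not tested. Of all genes, 17.2% lay lower without overlap against LPS alone in IL10-/- macrophages, and 37.8% higher in p50-/-IL10-/- macrophages. Against unstimulated cells these shares were 31.9% and 41.1%. Absence of overlap between 2 groups of 2 arrays was thus common, and the share of genes with both movements was not counted. Groups of 2 arrays were not screened for single arrays that stand apart.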

How the results depend on the processing

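Of 704 comparisons of single called genes with their refits, 0 changed direction, 634 kept the call and 70 lost it. For genes of the other lists, all fits with 1 array left out entered as 1 comparison, that with the highest adjusted p. For the genotype difference averaged over stimuli, the 9 calls became 9 to 10 with 1 array left out and 8 with a replicate block within genotypes, where Prtn3 was lost (adjusted p = 0.107). That block also ended the calls of Cebpa, Ctbs and Cd68 (adjusted p = 0.0606, 0.0880 and 0.0981) and of Mmp8, Cd177, Slpi, S100a1 and Bsg (0.149 to 0.357). A replicate block across all groups gave 9 calls there and moved 1 other count, the IL-10 effect without p50, from 3 to 2. Same-numbered arrays correlated in their deviations by -0.49 to 0.59 over 15 pairs of groups (median 0.20, and 0.34 over the 6 pairs within a genotype). These values do not decide whether arrays of different groups shared a culture. The main fit did not pair the arrays and treated them as independent. If cultures were shared, its SEs and p-values do not account for that. Counts that moved by over 1.5 times, with causes not tested, were these. LPS without p50 went from 2 to 6 with median centring, to 1 with a replicate block within genotypes, and to 1 with only the compared groups. Fitting only the compared groups also gave 1 for the IL-10 effect without p50, 1 for LPS plus IL-10 against unstimulated in IL10-/- (1 with median centring too), 4 for the same comparison without p50, and 5 for the genotype difference with LPS. With 1 array left out, whose partner is then assumed to vary like the other groups, counts ranged from 0 to 1 for LPS in either genotype, 0 to 0 and 0 to 1 for the IL-10 effect in IL10-/- and without p50, 0 to 1 for LPS plus IL-10 against unstimulated in either genotype, 6 to 7 for the genotype difference in unstimulated cells, 6 to 7 under LPS, 5 to 5 under LPS plus IL-10, and 0 to 0 for each test of how the genotypes differ in a stimulus effect. Ctsg, with a mean under 6 log2 units, has no value under that filter, and no gene had another probe set of its own to compare.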
